A study of Homo sapiens with 12 samples.

Results

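Y79 cells exposed to THZ1 were compared with Y79 cells kept in its solvent, DMSO. The comparison takes 6 of the 12 libraries of the study, chosen by the cell line and treatment in their labels: 3 from cells given 50 nM THZ1 for 12 h and 3 from cells given 0.1% DMSO for 12 h. It covers the 19974 Ensembl genes of the count table, of which 14865 had enough counts to be tested. Y79 is an established human line grown from a retinoblastoma, a tumour of the developing retina, and it is known for an amplified MYCN gene. The labels give the genotype of every library as WT and the cell type as retinoblastoma. The other 6 libraries come from WERI-Rb-1 (WERI), a second retinoblastoma line treated in the same way. They enter the estimate of the spread and a closing comparison of the lines. The design text describes repeated biological samples but does not say whether they were separate cultures, so p-values measure the spread between these libraries, which may be partly technical. Y79 is a single line, and it was measured at 1 dose and 1 time.

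CDK7 is a kinase that works with cyclin H (CCNH) and MAT1 (MNAT1) as the CDK-activating kinase. It is part of the general transcription factor TFIIH, phosphorylates the tail of RNA polymerase II as the enzyme leaves the promoter, and activates the cell cycle kinases. THZ1 binds CDK7 covalently and also binds CDK12 and CDK13, which act on elongating polymerase. MYCN, a transcription factor of the MYC family, drives ribosome assembly and growth genes, and in retinoblastoma it is a known oncogene beside loss of RB1.

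Most tested genes changed, and falls outnumbered rises. In edgeR, 4439 genes were higher and 5721 lower after THZ1 at an adjusted p under 0.05, which is 29.9% and 38.5% of the genes tested and 68.3% in either direction. Falls of at least 4-fold were found for 815 genes and rises of at least 4-fold for 586. Beyond 8-fold the order was the other way, with 276 rises and 159 falls. The CPM (counts scaled to a common library size by the TMM method) of the 3 treated libraries lay outside the range of the 3 controls for 68.9% of genes. Among the called genes 109 had no counts in any control library and 50 had none in any treated library.

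**Figure D1:**
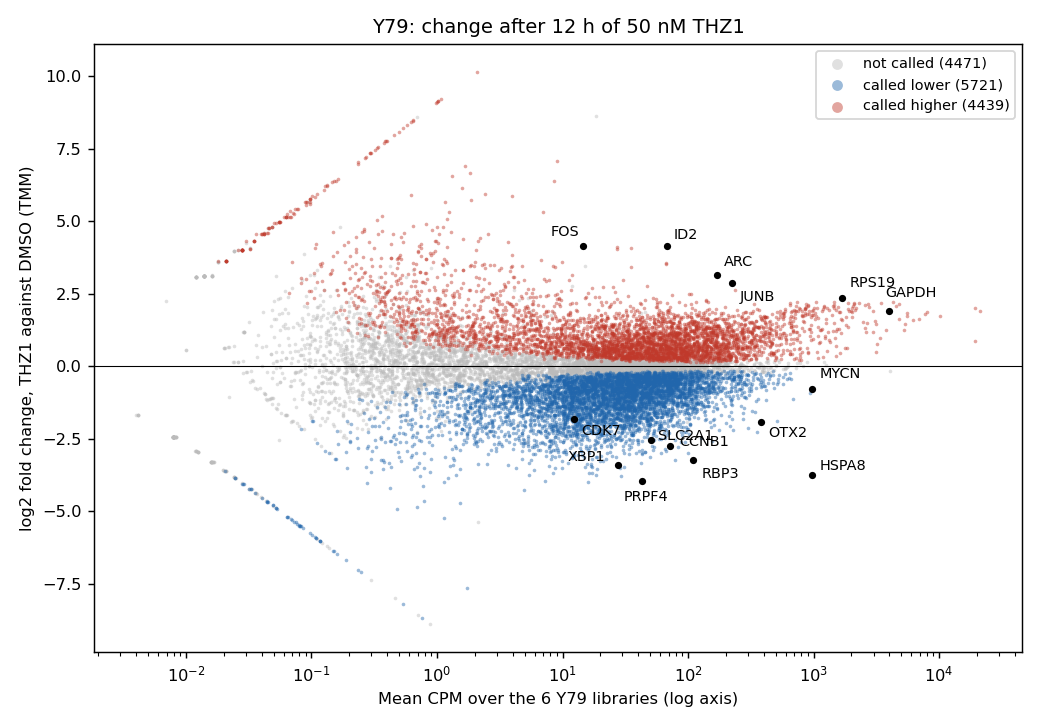
Log2 fold change of each tested gene (THZ1 against DMSO, TMM scaling) against its mean CPM over the 6 Y79 libraries on a log axis, for the genes with counts in Y79; red points were called higher, blue points lower, grey points not called, and black points are named genes. ID2, at 4.15, and PRPF4, at -3.96, lie at the upper and lower edges among well expressed genes, and RPS19 and GAPDH lie high at the right.

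Directions depended on the scaling, and the classes of RNA that make up a library differed between the groups. The median log2 fold change of all tested genes was -0.09 with TMM, 0.00 with RLE factors, -0.65 with library size alone and -1.80 relative to the mitochondrially encoded mRNAs, which a separate polymerase makes. The share of called genes that were higher was 43.7%, 48.4%, 20.7% and 2.27% in the same order. A fall under TMM was therefore larger under library size and mitochondrial scaling, whereas many rises under TMM stood below 0 under another scaling. Below, n = 3 libraries per group, means carry their SD and log2 fold changes their SE, values are TMM-scaled unless another scaling is named, and adjusted p is that of edgeR. In bulk RNA, fewer cells of a type and less RNA per cell cannot be told apart.

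The treated library of replicate 2 stood apart from the other treated libraries. Ribosomal protein mRNAs took 14.9% of its counts, against 11% and 10.7% in treated replicates 1 and 3 and 4.66% ± 0.0474 in the controls. Its log2 CPM correlated with treated replicates 1 and 3 at 0.969 and 0.967, below the 0.976 between those libraries and the 0.985 among controls, over all tested features. Without it 4388 genes were higher and 6001 lower. Of the calls made with it, 4038 rises and 5579 falls were also called without it, 401 rises and 142 falls were not, and 0 turned. Among well expressed genes that lost their call without it were EIF4A1, an RNA helicase of translation initiation (0.83, and 0.65 at an adjusted p of 0.151 without it), the replication helicase subunit MCM7 (0.21 and 0.07, 0.244) and NOP56, of the small nucleolar particles (0.23 and 0.10, 0.0753). These are marginal calls, since EIF4A1 also lost its call without control replicate 1 (adjusted p = 0.0802), and MCM7 and NOP56 without control replicate 1 or 2 (adjusted p from 0.0630 to 0.117).

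The mRNAs of the kinase complex that THZ1 binds fell themselves. CDK7 (ENSG00000134058, chromosome 5, 69234795 to 69277430, plus strand, GRCh38) stood at 19.2, 19.5 and 19.3 CPM in the controls and 5.26, 5.81 and 5.2 CPM after THZ1. The groups did not overlap and the fall was 3.56-fold (log2 -1.83 ± 0.122, adjusted p = 1.28e-08). Its partners fell less, CCNH from 23.5 ± 0.281 to 12.9 ± 0.826 CPM (log2 -0.87 ± 0.0984) and MNAT1 from 25 ± 2.88 to 12.1 ± 1.33 CPM (log2 -1.05 ± 0.12). Of 10 genes of the CDK-activating kinase and TFIIH, 6 were lower and 2 higher, with a median of -0.84 beside -0.09 for all genes. GTF2H1, a core TFIIH subunit, fell by 1.86, and the helicase ERCC3, which opens the promoter, by 0.80. The other helicase, ERCC2, stood at 0.36 and the small subunit GTF2H5 at 0.40, and both were called higher under TMM but turned to -0.21 and -0.18 by library size and -1.35 and -1.31 by mitochondrial scaling. The call of GTF2H5 was also lost without treated replicate 1 or 2 or control replicate 1 (adjusted p from 0.0600 to 0.111).

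Elongation factors moved in both directions. CDK12, which supports transcription through long genes, stood at 145, 142 and 139 CPM in the controls and 67, 43.6 and 63.8 CPM after THZ1. All treated libraries were below all controls and replicate 2 was the lowest, and the change was -1.29 ± 0.119 (-1.15 without that library). CDK13 stood at 90, 94 and 87.1 CPM in the controls and 89.4, 62.1 and 82.8 CPM after THZ1, where treated replicate 1 lay within the control range, and it was not called (-0.21 ± 0.114, adjusted p = 0.126, and -0.34 at 0.0188 without that library). CDK9, the kinase of P-TEFb, was not called either (0.19 ± 0.0903, adjusted p = 0.0828), but was called higher without treated replicate 1 (0.27) and with RLE factors (0.29). With library size alone CDK9 and CDK13 were called lower (-0.38 and -0.76). Of 31 elongation and 7SK genes 17 were lower and 5 higher (54.8% and 16.1%, median -0.37), beside 38.5% and 29.9% of all tested genes. LARP7, which holds the 7SK RNA together, fell by 2.01, and the PAF1 complex genes PAF1 and LEO1 by 2.00 and 1.61. HEXIM1, which keeps P-TEFb inactive on 7SK and is known to rise when that kinase is released, stood at 42.5, 40.1 and 45 CPM in the controls and 128, 143 and 128 CPM after THZ1. It rose 3.12-fold, with no overlap of the groups, although it stood at -0.07 under mitochondrial scaling.

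Of 43 polymerase II and Mediator genes 27 fell and 12 rose (62.8% and 27.9%, median -0.50), beside 38.5% and 29.9% of all tested genes. The falls were led by Mediator, the bridge between enhancer-bound factors and polymerase: MED19 at -2.71 ± 0.22, MED8 at -2.25 ± 0.122 and MED1, the subunit bound by nuclear receptors, at -1.97 ± 0.134. The largest polymerase subunit, POLR2A, stood at 104, 92.1 and 105 CPM in the controls and 186, 112 and 196 CPM after THZ1. Its treated replicate 2 lay closer to the controls than the others, and the rise of 0.72 turned to -0.99 under mitochondrial scaling. MED24 and POLR2E rose by 1.32 and 1.28 and turned likewise, to -0.39 and -0.42.

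MYCN mRNA stayed abundant while it fell. It stood at 1227, 1207 and 1264 CPM in the controls and 688, 724 and 722 CPM after THZ1, and the groups did not overlap (log2 -0.79 ± 0.0659, adjusted p = 1.15e-07). Per kb of exon the MYCN level went from 474 to 273 CPM and that of MYC from 3.45 to 1.85 CPM, so MYCN was the far more abundant of them with and without THZ1. MYC itself stood at 10.6, 8.88 and 11.5 CPM in the controls and 5.59, 4.89 and 6.19 CPM after THZ1 (log2 -0.89 ± 0.204), and MYCL fell by 2.12 from a low level. Among the partners that compete for the same DNA sites, MAX, the obligate partner, fell by 0.51 and MLX by 1.54. MXD1, a repressor of MYC sites, and MLXIPL, a glucose-sensing factor, rose by 1.61 and 1.71, and stood at -0.10 and 0.00 under mitochondrial scaling. In all, 6 of 13 network genes were lower and 4 higher (46.2% and 30.8%, median -0.14), beside 38.5% and 29.9% of all tested genes.

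Of 39 targets of MYC in ribosome assembly and nucleotide synthesis 24 fell and 12 rose (61.5% and 30.8%, median -0.62). Of all tested genes 38.5% fell and 29.9% rose. The members of the list differed widely. NOP16, a nucleolar protein of the large ribosomal subunit, stood at 32.2, 32.3 and 31.6 CPM in the controls and 2.99, 2.42 and 2 CPM after THZ1. That is a 12.9-fold fall (log2 -3.69 ± 0.214). BYSL, needed for the small subunit, fell by 2.96 ± 0.0992, the cell cycle kinase CDK4 by 2.50 ± 0.169 and the RNA polymerase I subunit POLR1B by 1.97 ± 0.129. The nucleolar genes NOP58 and GNL3 also fell, by 1.29 ± 0.115 and 1.68 ± 0.119. Other nucleolar genes did not. NCL, nucleolin, stood at 1146, 1146 and 1151 CPM in the controls and 1160.0, 1508 and 1114 CPM after THZ1 and was not called (adjusted p = 0.249), and NPM1, nucleophosmin, was called higher at 0.35, a call lost without control replicate 1 or 3 (adjusted p = 0.0617 and 0.0699). Fibrillarin (FBL) and the nucleotide synthesis gene IMPDH2 rose by 1.10 and 1.26. NCL was called lower with library size alone (-0.44) and higher by DESeq2 (0.24). Under library size alone NPM1 stood at -0.23, and under mitochondrial scaling all of NPM1, FBL and IMPDH2 were negative, at -1.37, -0.61 and -0.45.

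The deepest falls among well expressed genes were spread over several functions. PRPF4, of the spliceosomal U4/U6 particle, stood at 78.2, 79.9 and 83 CPM in the controls and 5.08, 4.41 and 5.99 CPM after THZ1, a 15.5-fold fall and the largest of its kind (log2 -3.96 ± 0.103). The zinc finger gene ZNF672 (log2 -3.80), the nucleolar gene CCDC86 (-3.76), the Wnt inhibitor gene APCDD1 (-3.70) and CD3EAP, an RNA polymerase I subunit (-3.56), came close behind. SLC35A4, TACO1, NCOA5, NIF3L1 and DCLRE1B lay between -3.50 and -3.46. PRPF4, NOP16 and SLC35A4 overlap a gene on the opposite strand by 208 to 344 exonic bases and CD3EAP overlaps ERCC1 by 1593, so without strand some of their counts may belong to the neighbour. The counts of CCNH, ERCC2, CDK4, MLX, MRPS18A, EIF5B, PDIA3, PSMD1 and FANCA, which share over 500 exonic bases with a gene on the opposite strand, are uncertain for the same reason. PRC1, LDHB and EIF4A1 share over 500 exonic bases with a gene on the same strand, so their counts would be uncertain even with strand.

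HSPA8 was the most abundant of these. It encodes HSC70, the constitutive cytosolic chaperone, and took 0.206% ± 0.00519 of all counts in controls and 0.0101% ± 0.000653 after THZ1. Its level stood at 1840.0, 1857 and 1777 CPM in the controls and 119.9, 155 and 126 CPM after THZ1. The treated libraries lay more than 10-fold under the controls and close together, a 13.6-fold fall (log2 -3.77 ± 0.0992, adjusted p = 8.19e-12). Its promoter window, 250 bases before to 50 after the start in RefSeq (GRCh38.p14, minus strand, chr11:123062087-123062386), is printed here because the same letters recur in promoters of other chaperone genes. Capitals mark GAANNTTC, the core of the heat shock element, 230 and 50 bases upstream of the start, and CCAAT, read on either strand, 129 and 99 bases upstream.
HSPA8: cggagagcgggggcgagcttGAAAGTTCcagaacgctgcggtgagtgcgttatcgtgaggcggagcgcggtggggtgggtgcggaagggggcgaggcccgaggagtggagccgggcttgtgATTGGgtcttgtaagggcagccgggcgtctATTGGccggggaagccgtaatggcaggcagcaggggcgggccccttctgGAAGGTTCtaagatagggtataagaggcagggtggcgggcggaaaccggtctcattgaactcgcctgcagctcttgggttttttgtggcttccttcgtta
GAANNTTC was found in the windows of 28.6% of the chaperone genes and of 4.50% of all 11478 tested genes with a window. It was no more frequent in genes called higher, at 4.24%, than in genes called lower, at 4.25%, and stood at 5.1% in genes not called.

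Chaperone genes moved in both directions, as all tested genes did (38.5% lower and 29.9% higher). Of 32 members 14 were lower and 9 higher (43.8% and 28.1%, median -0.35). DNAJA1 and DNAJB1, co-chaperones of HSP70, fell by 2.57 ± 0.0866 and 1.88 ± 0.0675, and HSPA4, a nucleotide exchange factor, by 1.38 ± 0.0646. The HSP90 genes went the other way. HSP90AA1 stood at 1814, 1900.0 and 1763 CPM in the controls and 3898, 4801 and 3733 CPM after THZ1 and HSP90AB1 rose by 1.25, and both turned negative under mitochondrial scaling (-0.53 and -0.46). Stress-inducible HSPA1A stood at 19.9, 14.9 and 20 CPM in the controls and 28, 32.9 and 19.5 CPM after THZ1, where treated replicate 3 lay inside the control range, and its call was lost without treated replicate 1 or 2 or control replicate 2 (adjusted p from 0.0813 to 0.136). It stood at 0.55 under TMM, -0.03 by library size and -1.15 by mitochondrial scaling. HSF1, the factor that binds heat shock elements, was not called (0.04, adjusted p = 0.724), but was called lower with library size alone (-0.53).

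**Figure D2:**
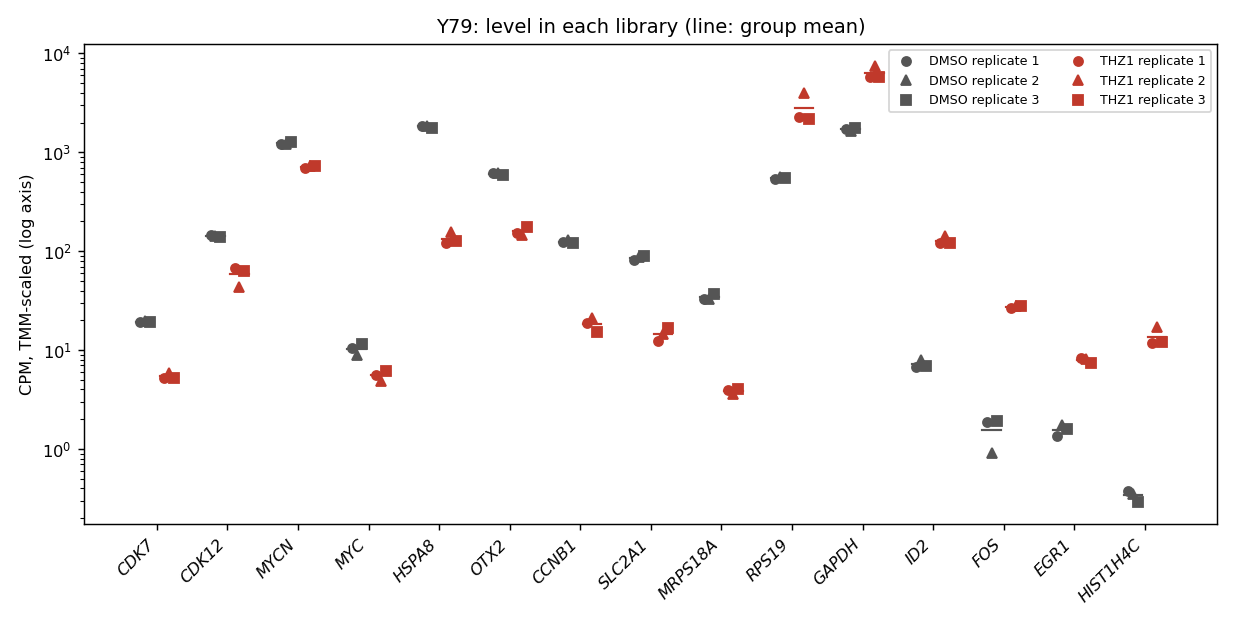
CPM of 15 genes (log axis) in each of the 3 DMSO (grey) and 3 THZ1 (red) libraries of Y79, with marker shape for the replicate and a line for the group mean. No gene shown has overlapping groups, and treated replicate 2 (triangles) lies above its replicates for RPS19 and below them for CDK12.

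The largest rise among well expressed genes was that of ID2, which blocks bHLH differentiation factors from binding DNA. It stood at 6.73, 7.95 and 6.88 CPM in the controls and 122, 143 and 119.7 CPM after THZ1, a 17.8-fold rise (log2 4.15 ± 0.0957), and it remained at 2.44 under mitochondrial scaling. The other ID genes changed less or fell. ID1 stood at 65.1, 103 and 109 CPM in the controls and 104, 142 and 84.9 CPM after THZ1 and was not called (adjusted p = 0.282), ID3 fell by 0.77 ± 0.104, and ID4 rose by 0.88 ± 0.246 and stood at -0.81 under mitochondrial scaling. The call of ID4 was lost with the Y79 libraries alone (adjusted p = 0.0598) and with library size alone (0.31, adjusted p = 0.268). Of 12 ID and HES family genes 5 were higher and 3 lower, beside 29.9% and 38.5% of all tested genes. The median of the 12 genes was 0.57 under TMM, -0.01 by library size and -1.13 by mitochondrial scaling. The Notch target gene HEYL fell by 2.62 ± 0.203. HES6, which opposes HES1, rose by 1.29 but stood at -0.42 under mitochondrial scaling, and HES1 rose by 2.32 from below 1 CPM (0.404, 0.376 and 0.265 CPM in the controls and 1.08, 3 and 1.21 CPM after THZ1).

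Immediate early genes, which signalling switches on within minutes, moved both ways: 21 of the 45 tested were higher and 9 lower. Among all tested genes 29.9% were higher and 38.5% lower. The median of the immediate early genes was 0.38 under TMM and 0.48 with RLE factors, but -0.18 by library size and -1.33 by mitochondrial scaling. FOS, a subunit of the AP-1 factor, stood at 1.85, 0.903 and 1.9 CPM in the controls and 26.5, 27.6 and 28.1 CPM after THZ1. The treated libraries were close together and at least 10-fold above each control (log2 4.13 ± 0.2, adjusted p = 7.06e-10). EGR1, a zinc finger factor, stood at 1.35, 1.76 and 1.59 CPM in the controls and 8.37, 8.09 and 7.36 CPM after THZ1 (log2 2.34 ± 0.149). ARC, a neuronal activity gene, rose 8.79-fold from 34.6 ± 1.17 to 304 ± 26.6 CPM, JUNB 7.3-fold from 53.9 ± 7.8 to 393 ± 91.6 CPM and IER2 6.18-fold from 66.3 ± 5.18 to 410.1 ± 54.4 CPM. FOS, EGR1, ARC, JUNB and IER2 also stood above 0 under mitochondrial scaling, at 2.44, 0.63, 1.43, 1.16 and 0.92. FOSL1, EGR2 and EGR3 reached 5.09, 4.67 and 4.57, each from under 1 CPM. For EGR2 the counts were 2, 0 and 0 in the controls and 9, 16 and 10 after THZ1, so the size of its rise is poorly known. JUN rose by 1.34 and stood at -0.36 under mitochondrial scaling. The lower members included DUSP5, a phosphatase that switches ERK off (-2.30 ± 0.101), and PPP1R15A, which restarts translation after stress (-1.13 ± 0.113).

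The promoter windows of FOS (chr14:75278578-75278877, plus strand) and EGR1 (chr5:138465229-138465528, plus strand), from RefSeq GRCh38.p14, are printed to show the letters counted over the immediate early genes. In FOS they mark TATAAA, 33 bases upstream of the start. In EGR1 they mark CArG boxes, the site of the serum response factor, 105 and 83 bases upstream.
FOS: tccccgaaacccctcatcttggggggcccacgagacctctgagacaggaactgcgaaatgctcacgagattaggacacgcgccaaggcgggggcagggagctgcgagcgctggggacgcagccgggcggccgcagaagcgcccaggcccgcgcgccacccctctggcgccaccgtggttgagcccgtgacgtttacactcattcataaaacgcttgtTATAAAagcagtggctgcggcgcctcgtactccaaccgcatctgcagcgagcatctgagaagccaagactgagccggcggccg
EGR1: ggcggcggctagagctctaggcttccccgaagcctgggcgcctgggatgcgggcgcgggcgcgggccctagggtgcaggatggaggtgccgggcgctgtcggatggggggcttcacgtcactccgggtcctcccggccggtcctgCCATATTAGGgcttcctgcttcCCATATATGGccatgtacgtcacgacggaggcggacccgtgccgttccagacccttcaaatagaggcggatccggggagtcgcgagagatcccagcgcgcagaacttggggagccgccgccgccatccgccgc
TATAAA on either strand was found in 24.2% of the immediate early windows and 5.74% of all windows. The CArG box was found in 2 of 33 immediate early windows, EGR1 being 1 of them, and in 1.06% of all windows. Over all tested genes, those with TATAAA had a median log2 fold change of 0.12 and those without it -0.15. TATAAA was found in 6.59% of genes called higher, 3.97% of genes called lower and 7.28% of genes not called. A match describes letters in the window and does not show that a factor was bound.

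Replication-dependent histone genes rose more than any other list described here. Their mRNAs end in a stem-loop in place of a poly(A) tail and are made in S phase. Of 71 genes 46 were tested, and 44 were higher and 0 lower, and the median was 3.05, or 1.34 when scaled to the mitochondrial mRNAs. They took 0.0209% ± 0.000241 of counts in controls and 0.0787% ± 0.00447 after THZ1, for which the two-sided exact permutation p was 0.1, and no lower p can be reached with groups of 3. HIST1H4C stood at 0.38, 0.351 and 0.289 CPM in the controls and 11.8, 17.1 and 12.2 CPM after THZ1, without overlap (log2 5.31 ± 0.269). HIST1H2BG stood at 4.14, 3.81 and 3.68 CPM in the controls and 56, 74.4 and 68.4 CPM after THZ1, and HIST2H2BE at 5.35, 5.64 and 6.98 CPM in the controls and 62, 60.2 and 71.2 CPM after THZ1. HIST2H3C and HIST2H3A, and HIST2H4A and HIST2H4B, are near-identical copies whose counts cannot be assigned with certainty, and they rose by 3.51 to 4.11. Because the genes that pass a filter on low counts include those that pass only through the treated libraries, the count of rises is a description.

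Cytosolic and mitochondrial ribosomal proteins went in opposite directions. All 79 mRNAs of cytosolic ribosomal proteins were higher, with a median of 1.92 (1.63 without treated replicate 2, 1.34 with library size alone), and with mitochondrial scaling 20 were still called higher and 1 lower (median 0.21). RPS19, of the small subunit, stood at 536, 564 and 546 CPM in the controls and 2264, 3996 and 2191 CPM after THZ1. Treated replicate 2 was well above its replicates, and the groups were far apart with or without it (log2 2.36 ± 0.185, and 1.99 without it). RPS9, RPL37A and RPS15 rose by 2.22, 2.22 and 2.21. Of 7 tested paralogs outside the ribosome's standard set 3 fell and 2 rose. RPL7L1 stood at 298, 288 and 278 CPM in the controls and 59.9, 65.2 and 63 CPM after THZ1 (log2 -2.20 ± 0.0622), and RPL36AL and RPS27L fell by 0.88 and 0.53. RPL3L and RPL22L1 were called higher at 0.93 and 0.41 and stood at -0.79 and -1.31 under mitochondrial scaling, and RPL22L1 at -0.18 by library size. The call of RPL22L1 was lost without treated replicate 2 or control replicate 1 or 3 (adjusted p from 0.118 to 0.462).

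The nuclear genes of the mitochondrial ribosome mostly fell. Beside 38.5% lower and 29.9% higher of all tested genes, 61 of 78 were lower and 10 higher (78.2% and 12.8%). The median of the 78 genes was -1.14. As a class they went from 0.395% ± 0.0108 to 0.180% ± 0.0160 of counts (exact permutation p = 0.1, two-sided). MRPS18A stood at 32.5, 32.9 and 36.8 CPM in the controls and 3.93, 3.58 and 4.07 CPM after THZ1, an 8.79-fold fall. MRPL18 and MRPL49 fell by 2.55 ± 0.115 and 2.44 ± 0.106. MRPL33 and MRPL23 were higher, at 1.24 and 1.49, and turned to -0.48 and -0.22 under mitochondrial scaling.

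Translation factors, the nuclear respiratory chain and the mitochondrial mRNAs rose in most members under TMM. Of 38 translation factors 25 rose and 10 fell (65.8% and 26.3%), with a median of 1.09, and -0.63 under mitochondrial scaling. Of all tested genes 29.9% rose and 38.5% fell. The elongation factor EEF1A1 stood at 7736, 7741 and 7574 CPM in the controls and 27660.0, 37520.0 and 27040.0 CPM after THZ1 (log2 2.00 ± 0.118), and TPT1, a translationally controlled growth gene, rose by 1.97. In contrast EIF4E, the cap-binding protein, stood at 76.4, 78.3 and 70.9 CPM in the controls and 18.8, 24.1 and 18.9 CPM after THZ1 (log2 -1.87 ± 0.0966), and EIF5B, which joins the subunits, fell by 1.84 ± 0.0781. Of 61 nuclear genes of the respiratory chain 46 rose and 11 fell (75.4% and 18.0%). Their median was 0.92, 0.61 without treated replicate 2 and -0.79 under mitochondrial scaling. COX6C of complex IV rose by 1.95 ± 0.194 and NDUFA1 of complex I by 1.68 ± 0.15 (-0.03 by mitochondrial scaling), while NDUFA8 of complex I fell by 2.35 ± 0.14. All 13 mitochondrially encoded mRNAs were higher under TMM (median 1.64, 1.07 with library size alone), and their median was -0.06 under the scaling built on their sum. MT-CO1 stood at 8867, 8560.0 and 9403 CPM in the controls and 32360.0, 35300.0 and 32980.0 CPM after THZ1.

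**Figure D3:**
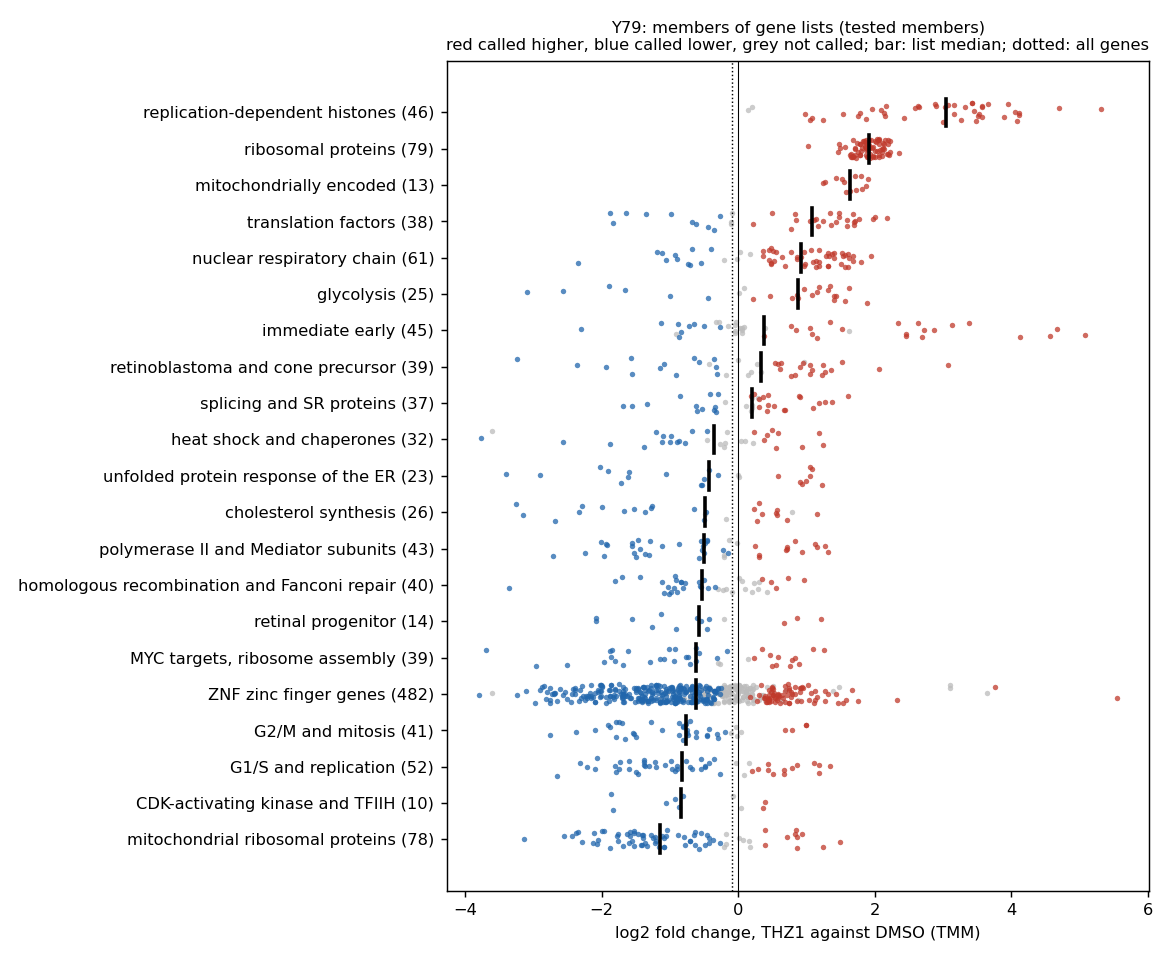
Log2 fold change (THZ1 against DMSO, TMM) of the tested members of 21 gene lists, with the number of tested members in brackets, red for members called higher, blue for lower and grey for not called; bars are list medians and the dotted line is the median of all tested genes, -0.09. Histones (3.05) and cytosolic ribosomal proteins (1.92) lie at the top and mitochondrial ribosomal proteins (-1.14) at the bottom, with members of most other lists on both sides of 0.

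Cell cycle genes fell in most members. Of 41 genes of G2/M and mitosis 33 fell and 4 rose (median -0.77), and of 52 genes of G1/S and replication 36 fell and 13 rose (median -0.82). CCNB1, the mitotic cyclin, stood at 124, 129 and 122 CPM in the controls and 18.8, 21.3 and 15.2 CPM after THZ1, a 6.79-fold fall without overlap. The mitotic kinases AURKA and PLK1 fell by 2.37 ± 0.0962 and 2.10 ± 0.0644. CDK1, the partner kinase of CCNB1, fell only by 0.31 ± 0.11, with treated replicate 2 inside the control range (96, 108 and 91.4 CPM in the controls and 72.9, 95.9 and 69.8 CPM after THZ1). The call of CDK1 was lost without treated replicate 1 or 3 or control replicate 2 (adjusted p from 0.0859 to 0.100) and with RLE factors (0.136). CCNE1, the cyclin that opens S phase, fell by 2.09 ± 0.12, CDC6, which loads the replication helicase, by 2.31 ± 0.0731, and the sliding clamp PCNA by 1.73 ± 0.107. MCM2 of that helicase was not called (-0.03, adjusted p = 0.752), but was called lower with library size alone (-0.60). The replication genes TIMELESS and POLD1 and the mitotic gene PRC1 rose by 1.34, 1.18 and 1.00, and stood at -0.38, -0.53 and -0.72 under mitochondrial scaling.

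In the RB pathway itself 17 of 28 genes fell and 6 rose (60.7% and 21.4%, median -0.52), beside 38.5% and 29.9% of all tested genes. E2F1, the activator that RB restrains, stood at 109, 96.2 and 108 CPM in the controls and 28.1, 42.6 and 33.8 CPM after THZ1 (log2 -1.59 ± 0.122). Counts per gene do not show whether an RB1 transcript is intact or makes a working protein. Signal from RB1 was present, at 49.7, 50.8 and 48.7 CPM in the controls and 113, 86.5 and 106 CPM after THZ1, and rose by 1.03 ± 0.171, although it stood at -0.68 under mitochondrial scaling. MDM4, a p53 inhibitor gained in some retinoblastomas, stood at 111, 111 and 111 CPM in the controls and 287, 216 and 299 CPM after THZ1, and turned from 1.27 to -0.45 under that scaling. KIF14, of the same chromosome arm, fell by 0.86 ± 0.0932, and DEK was not called (0.11, adjusted p = 0.266). DEK was called higher with RLE factors (0.21) and lower with library size alone (-0.46). CDKN2A, the cell cycle inhibitor locus, rose by 2.15 ± 0.199 from 3.41 ± 0.504 to 15.2 ± 4.73 CPM. Under mitochondrial scaling it stood at 0.44 and was not called (adjusted p = 0.0615).

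Homologous recombination and Fanconi repair genes, several of which are known to depend on CDK12, fell in 23 and rose in 5 of 40 cases. These are 57.5% and 12.5% (median -0.53), beside 38.5% and 29.9% of all tested genes. ERCC4, an endonuclease, stood at 22, 19.6 and 19.2 CPM in the controls and 2.31, 1.84 and 1.79 CPM after THZ1, a 10.2-fold fall. BRCA1 fell by 0.83 ± 0.104, BRCA2 by 0.58 ± 0.161 and the checkpoint kinase gene ATR by 0.91 ± 0.105. BRCA2 was lowest in treated replicate 2 (42.5, 24.2 and 43.9 CPM). FANCA and MRE11 rose by 0.96 and 0.73 and turned to -0.75 and -0.98 under mitochondrial scaling.

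Genes of cell death moved in both directions, as all tested genes did (38.5% lower and 29.9% higher). The shares lower and higher were 44.4% and 22.2% of the anti-apoptotic genes and 45.5% and 22.7% of the pro-apoptotic entries. Of 9 anti-apoptotic genes 4 fell and 2 rose, and of 22 pro-apoptotic entries, with DIABLO present under 2 overlapping Ensembl identifiers of which 1 was lower, 10 fell and 5 rose (medians -0.20 and -0.09, the latter 0.02 with RLE factors). BCL2L1, which encodes BCL-XL, stood at 191, 181 and 195 CPM in the controls and 102, 107 and 98.9 CPM after THZ1 (log2 -0.88 ± 0.0648). MCL1, a short-lived guardian, stood at 251, 259.5 and 260.0 CPM in the controls and 349, 322 and 331 CPM after THZ1, higher in every treated library under TMM (0.38 ± 0.0615) and lower with library size alone (-0.18). BCL2 was not called (0.17, adjusted p = 0.0901), but was called higher with RLE factors (0.27) and lower with library size alone (-0.39). Among the killers, the pore former BAX stood at 49, 43 and 44.2 CPM in the controls and 93.3, 147 and 88.3 CPM after THZ1 (log2 1.27 ± 0.159, -0.44 under mitochondrial scaling). The other pore former, BAK1, fell by 1.86 ± 0.101, as did BOK (-2.09 ± 0.163) and the executioner CASP6 (-2.02 ± 0.142). PMAIP1 and BCL2L11, genes of BH3-only proteins, were not called (adjusted p = 0.893 and 0.0883, and 0.0276 for BCL2L11 without treated replicate 2). BCL2L11 was called higher with RLE factors (0.35), and PMAIP1 lower with library size alone (-0.58). The call of BBC3, at 0.50, was lost without treated replicate 2 (0.16, adjusted p = 0.336) or any of the controls (adjusted p from 0.0634 to 0.0911), and it stood at -0.09 by library size and -1.21 by mitochondrial scaling.

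Of 30 p53 targets 14 were lower and 10 higher (median -0.11). These are 46.7% and 33.3%, beside 38.5% and 29.9% of all tested genes. CDKN1A, the p21 inhibitor, stood at 82.7, 84.2 and 84.5 CPM in the controls and 46.3, 52.9 and 50.3 CPM after THZ1 (log2 -0.75 ± 0.0728), and MDM2, which degrades p53, at 219, 221 and 211 CPM in the controls and 303, 262 and 312 CPM after THZ1 (log2 0.43 ± 0.0753, -0.13 with library size alone). SESN2 fell by 2.42 ± 0.113.

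Stress response genes moved in both directions, as all tested genes did (29.9% higher and 38.5% lower). In the unfolded protein response 13 of 23 genes fell and 8 rose (median -0.43). XBP1, its transcription factor, stood at 44, 54.5 and 52.9 CPM in the controls and 4.76, 5.38 and 4.24 CPM after THZ1, a 10.6-fold fall, and HSPA5, the ER chaperone BiP, fell by 1.06 ± 0.0898. PDIA3 and HYOU1 rose by 1.23 and 1.08 and turned to -0.48 and -0.63 under mitochondrial scaling. In the integrated stress response 11 of 25 genes fell and 5 rose (median -0.39). Its effectors DDIT3 and TRIB3 fell by 2.02 ± 0.198 and 2.48 ± 0.168, and ATF4, the factor upstream of them, was not called (0.23, adjusted p = 0.0624), though it was called higher without treated replicate 1 (0.28) or 3 (0.30). ATF4 was also called higher with RLE factors (0.33) and lower with library size alone (-0.35).

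Glycolysis genes mostly rose under TMM. Of its 25 genes 17 rose and 6 fell (68.0% and 24.0%), beside 29.9% and 38.5% of all tested genes. The list median of 0.88 was 0.30 by library size and -0.82 by mitochondrial scaling. GAPDH stood at 1714, 1636 and 1758 CPM in the controls and 5708, 7490.0 and 5717 CPM after THZ1, and PGK1 rose by 1.56. PKM, which makes pyruvate, LDHB, a lactate dehydrogenase, and the lactate transporter gene SLC16A3 rose by 1.44, 1.41 and 0.97 and stood at -0.27, -0.30 and -0.74 under mitochondrial scaling. The call of SLC16A3 was lost without treated replicate 3 (adjusted p = 0.057). HK1, a hexokinase, was not called (0.08, adjusted p = 0.354), but was called higher with RLE factors (0.18) and lower by library size (-0.49). Other members fell. The glucose transporter gene SLC2A1 stood at 81.6, 86.7 and 89.9 CPM in the controls and 12.3, 14.7 and 16.9 CPM after THZ1 (log2 -2.56 ± 0.0997), SLC2A3 fell by 3.10 ± 0.121, and LDHA, which makes lactate, stood at 803, 826 and 782 CPM in the controls and 219, 242 and 188 CPM after THZ1 (log2 -1.89 ± 0.0845). GAPDH and PGK1 stood at 0.18 and -0.16 under mitochondrial scaling.

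In cholesterol synthesis and uptake 14 of 26 genes fell and 9 rose (53.8% and 34.6%, median -0.49), beside 38.5% and 29.9% of all tested genes. The synthesis enzymes HSD17B7, MVK and SQLE fell by 3.26 ± 0.192, 3.15 ± 0.156 and 2.69 ± 0.0927. SREBF2, the master factor of the pathway, was called higher at 0.72 ± 0.0745 under TMM, and stood at 0.17 by library size and -0.99 by mitochondrial scaling.

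Retinal identity genes were present and moved in both directions. The cone precursor factors CRX, OTX2, RXRG and THRB and the cone arrestin gene ARR3, the markers of this tumour, were all detected in controls. OTX2 stood at 613, 622 and 594 CPM in the controls and 154, 147 and 175 CPM after THZ1 (log2 -1.94 ± 0.0771), while its target factor CRX stood at 474, 453 and 469 CPM in the controls and 359.5, 414 and 353 CPM after THZ1 and fell only by 0.31 ± 0.0698. THRB, the thyroid receptor of long-wavelength cones, fell by 2.36 ± 0.113 from 61.1 ± 4.57 to 11.8 ± 2.29 CPM, and RBP3, a retinoid carrier of photoreceptors, by 3.24 ± 0.107 from 197 ± 11.3 to 20.8 ± 2.89 CPM. GNAT1, the transducin of rods, and RCVRN, the photoreceptor calcium sensor recoverin, rose by 1.52 ± 0.399 and 1.24 ± 0.131 and stood at -0.19 and -0.47 under mitochondrial scaling. Of 39 tested genes of this list 18 were higher and 13 lower (46.2% and 33.3%), beside 29.9% and 38.5% of all tested genes. The list median was 0.33 under TMM, -0.23 by library size and -1.37 by mitochondrial scaling. Of 14 tested progenitor genes 10 fell and 3 rose (71.4% and 21.4%, median -0.57), beside 38.5% and 29.9% of all tested genes. The eye field factors RAX and SIX3 fell by 2.08 ± 0.0856 and 1.13 ± 0.0777, whereas SOX4 and SOX11 rose by 1.21 and 0.86, and these stood at -0.50 and -0.85 under mitochondrial scaling.

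Markers of other cells ranged from absent to well detected. RLBP1, which defines Müller glia, had 0 counts in all 6 libraries, which allows up to 3 counts in each. Small counts may stand for fewer fragments than their number, since both reads of a pair may have been counted. GLUL and VIM of the glial list are not specific and stood at 513, 499 and 485 CPM in the controls and 452, 453 and 427 CPM after THZ1 and at 172, 193 and 202 CPM in the controls and 116, 164 and 111 CPM after THZ1, both called lower. The call of GLUL was lost without control replicate 1 or 2 or treated replicate 3 (adjusted p from 0.0545 to 0.0902). The other 4 glial genes summed to 0.457 to 0.737 CPM in the controls and 0.339 to 1.16 CPM after THZ1. None of the 4 tested pigment epithelium genes was called in edgeR with all libraries under TMM. RPE65 stood at 4.92, 5.17 and 3.37 CPM in the controls and 3.68, 3.49 and 3.37 CPM after THZ1, and was called lower with library size alone (-0.92). BEST1 of that list varied from 0.166 to 41.4 CPM and overlaps FTH1 by 1267 exonic bases on the opposite strand, and it was called higher by DESeq2 (2.86, adjusted p = 0.0212) and in edgeR without control replicate 3 (4.73, adjusted p = 0.0181). Of 4 tested blood genes 2 were called higher, CD68 at 0.903, 0.577 and 1.11 CPM in the controls and 3.57, 2.76 and 2.79 CPM after THZ1 and HBA1, which shares reads with its copy HBA2, at 9.48, 7.75 and 9.61 CPM in the controls and 22.4, 40.3 and 23.3 CPM after THZ1. PTPRC and HBB, which define leukocytes and erythroid cells, were under 1 CPM in every library. Of 5 tested stroma and vessel genes 2 were called higher, COL1A1 at 1.59, 1.2 and 1.54 CPM in the controls and 2.6, 2.71 and 4.03 CPM after THZ1 and PECAM1 with 0, 0 and 0 counts in the controls and 6, 0 and 4 after THZ1. The summed level of the 5 blood genes was 8.66 to 11.2 CPM in the controls and 26.6 to 43.4 CPM after THZ1. That of the 6 stroma and vessel genes was 2.08 to 2.89 CPM and 3.57 to 4.90 CPM. By mitochondrial scaling 0 of the blood and 1 of the stroma and vessel genes were called higher. Of 19 tested genes of inner retinal neurons 7 rose and 3 fell (36.8% and 15.8%), beside 29.9% and 38.5% of all tested genes. The median of the 19 genes was -0.33, and 0.00 without treated replicate 2. These genes were not all low: ONECUT2, a factor of horizontal cells, stood at 163, 154 and 153 CPM in the controls and 146, 68.8 and 143 CPM after THZ1 and was not called. It was called lower without treated replicate 1 (-0.59, adjusted p = 0.0364) and with library size alone (-0.93). GRM6, the glutamate receptor of ON bipolar cells, stood at 33.1, 29.4 and 35 CPM in the controls and 85, 109 and 90.8 CPM after THZ1 and rose by 1.55 ± 0.0985, though it stood at -0.16 under mitochondrial scaling. The call of CALB1 rests on counts of 0, 0 and 4 after THZ1, with 0, 0 and 0 in the controls, and was lost without treated replicate 3 or any of the controls. The summed level of the 24 genes was 313.7 to 331.1 CPM in the controls and 303.6 to 367.0 CPM after THZ1. The part of other cells in the results was not tested.

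Of 482 tested genes with a ZNF symbol, most of which encode zinc finger proteins, 271 were lower and 76 higher (56.2% and 15.8%, median -0.62). Of all tested genes 38.5% were lower and 29.9% higher. ZNF133 and ZNF28 fell by 3.24 and 3.11. Of 37 splicing genes 18 rose and 12 fell (48.6% and 32.4%). Their median of 0.21 was -0.36 by library size and -1.50 by mitochondrial scaling. The splicing regulator SRSF3 stood at 478, 489.6 and 467 CPM in the controls and 146, 177 and 168 CPM after THZ1 (log2 -1.55 ± 0.0756). Proteasome subunits fell in 18 and rose in 8 of 36 cases (50.0% and 22.2%, median -0.25). The cap subunits PSMD1 and PSMD14 stood at -1.78 and -1.74. Among 26 Polycomb and DNA methylation genes 11 fell and 9 rose (42.3% and 34.6%, median -0.14), beside 38.5% and 29.9% of all tested genes. The falls were led by UHRF1, which brings the methyltransferase to replicated DNA. It stood at 346, 349 and 357 CPM in the controls and 82, 81.3 and 86.3 CPM after THZ1 (log2 -2.07 ± 0.0611). EZH2 and DNMT1 were not called (adjusted p = 0.0769 and 0.055), although EZH2 passed as higher without treated replicate 1 (0.20, adjusted p = 0.0454) and DNMT1 as lower without treated replicate 2 or 3 (adjusted p = 0.0208 and 0.0232). EZH2 was also called higher with RLE factors (0.26), and with library size alone EZH2 and DNMT1 were called lower (-0.41 and -0.72). Among 21 interferon and NF-kB genes 5 rose and 3 fell (23.8% and 14.3%, median 0.15, -0.07 with library size alone). Both shares were below the 29.9% and 38.5% of all tested genes. ISG15 stood at 4.04, 3.71 and 3.54 CPM in the controls and 9.66, 12 and 7.23 CPM after THZ1 (-0.36 by mitochondrial scaling).

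**Figure D4:**
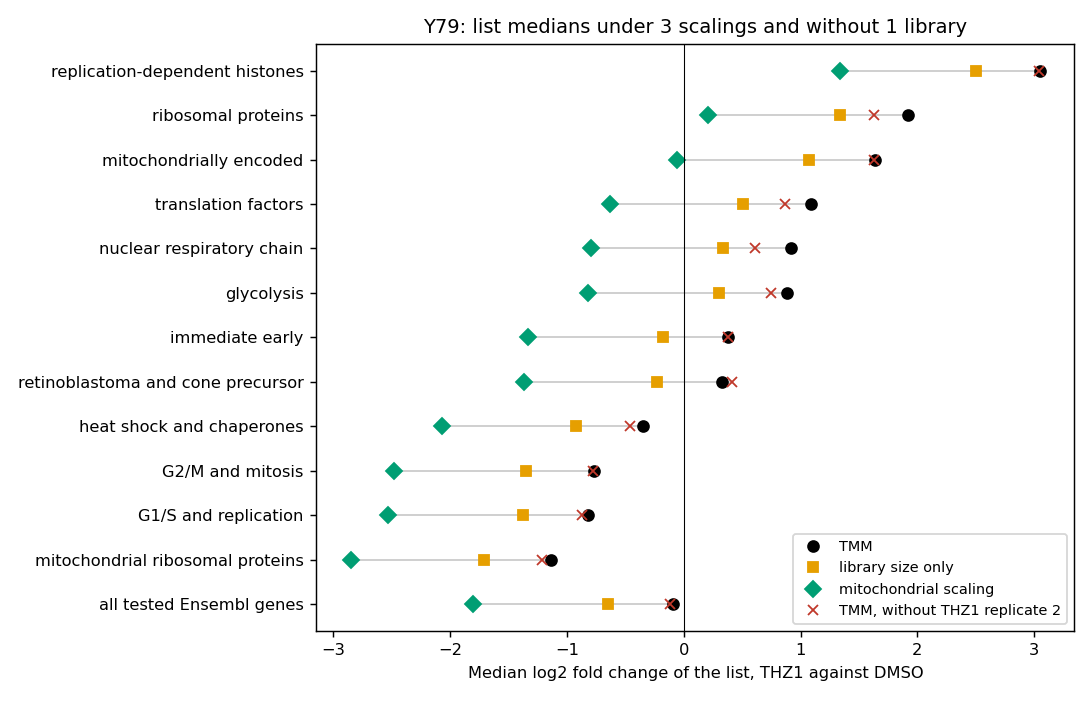
Median log2 fold change (THZ1 against DMSO) of 12 gene lists and of all tested genes under TMM (circles), library size alone (squares), mitochondrial scaling (diamonds) and TMM without treated replicate 2 (crosses). Histones and cytosolic ribosomal proteins stay to the right of 0 under each setting and cell cycle genes and mitochondrial ribosomal proteins to the left, while immediate early and cone precursor genes lie on both sides.

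Exonic length, the merged bases of all annotated exons of a gene, went along with the change. Among genes with a mean of at least 1 CPM, the 123 genes with up to 1000 exonic bases had a median log2 fold change of 1.36, and 70.7% of them were higher. The 863 genes with 1000 to 2000 bases had a median of 0.08, and longer classes lay between -0.25 and -0.14. Without ribosomal protein, histone and mitochondrial genes the shortest class still stood at 0.97, over 92 genes. Length also separated treated replicate 2 from its replicates: its log2 ratio to the mean of treated replicates 1 and 3 was 0.40 in the shortest class and -0.22 above 8000 bases. Without that library the median of the shortest class was 1.10. The part of exonic length in the results was not tested.

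**Figure D5:**
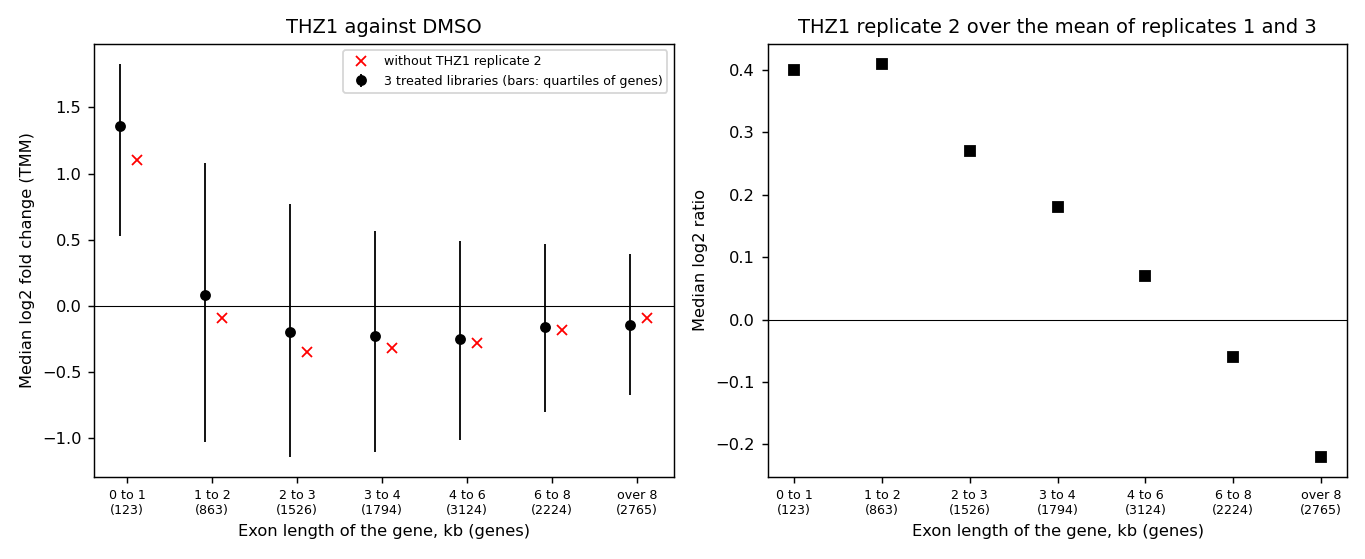
Left, median log2 fold change (THZ1 against DMSO, TMM) with quartiles over genes by exon length in kb, with the number of genes in brackets, and the medians without treated replicate 2 as crosses; right, median log2 ratio of treated replicate 2 to the mean of treated replicates 1 and 3. The shortest class stands at 1.36 and the others between -0.25 and 0.08, and the ratio on the right goes from 0.40 in the shortest class to -0.22 in the longest.

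Other properties separated the genes less. By whole gene length, introns included, the medians went from 0.76 over 202 genes of up to 2000 bases to -0.30 between 50000 and 100000 bases, and back to -0.06 over 953 genes above 200000 bases. The class of the longest genes thus did not have the lowest median. The promoter letters CCGGAA, the core of ETS family sites read on both strands, were found in 27.7% of all windows. The share was 33.2% of genes called lower, 26.6% of genes called higher and 21.5% of genes not called. CCGGAA was frequent in the windows of cytosolic and of mitochondrial ribosomal protein genes alike, at 54.0% and 56.5%, although these lists moved apart. CCAAT on either strand was found in 79.4% of G2/M windows and 36.1% of all windows. CACGTG, the E-box bound by MYC, was found in 38.7% of the windows of its ribosome assembly targets and 9.82% of all windows. The share of CACGTG was 10.9% among genes called lower, 9.79% among genes called higher and 8.44% among genes not called.

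The response of Y79 was compared with that of WERI by the difference of their THZ1 changes, tested in the same model. The difference was called for 3264 genes, 22.0% of those tested, and was at least 2-fold for 642. It was negative, with Y79 lower, for 1965 and positive for 1299. Without treated replicate 2 the difference was called for 5190 genes. CDK12 fell in Y79 by 1.29 and stood at 0.04 in WERI (difference -1.32 ± 0.166, adjusted p = 0.000169). RBP3 fell by 3.24 in Y79 and from 503 to 244 CPM in WERI (difference -2.20 ± 0.139), SIX3 fell in Y79 and stood at 0.32 in WERI (-1.46 ± 0.107), and DNAJA1 differed by -1.87 ± 0.116. MYC fell in Y79 and rose by 1.09 in WERI, from 0.953 to 2.04 CPM there (difference -1.99 ± 0.307). Calls in opposite directions were made for 115 genes higher in Y79 and lower in WERI and for 144 genes the other way. Among the largest positive differences, AHRR and MEST stood near 0 in WERI (0.532 to 0.299 CPM and 0.222 to 0.15 CPM), and among the largest negative ones FAM111B and RNF26 did so too (0 to 0.0345 CPM and 0.0145 to 0.195 CPM), so those differences rest on few counts in that line.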

How the data were processed

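RNA was sequenced from 12 libraries, of which the 6 Y79 libraries are compared here. Per the labels' protocols, the NEBNext Ultra RNA kit was used, so transcript strand is lost. The submitters' processing notes name GRCh38 and Cufflinks, whose version was not given. The aligner and how reads were counted were not given in the sources used here. Whole-number counts per gene were deposited by the authors, with no normalization that the values show. Y79 totals were 35192827 to 37433574 counts in controls and 29677575 to 35095844 after THZ1.

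Counts were analysed with edgeR 4.0.16 in R 4.3.3: filterByExpr with default settings, TMM factors, and a quasi-likelihood fit (glmQLFit with robust estimates, glmQLFTest) of all 12 libraries with 1 mean per group. Tests were two-sided, with Benjamini-Hochberg adjustment over all tested features, and genes were called at an adjusted p under 0.05. The table also holds 7531 unannotated loci, which entered the fit and the totals but no printed count of genes. Annotation was GENCODE v29, and promoter windows came from RefSeq GRCh38.p14 for 11478 tested genes. They were matched by Ensembl identifier, or by symbol where that gave no window. The SE of a log2 fold change was derived from its F statistic. The fit was tested on simulated data. Pairs of replicate libraries were checked and differed by more than sampling noise. Alternatives were RLE factors, library size alone, scaling on the 13 mitochondrially encoded mRNAs, no filter, DESeq2 1.42.0, the Y79 libraries alone, a replicate block and single libraries left out. Shares were compared by an exact permutation test. Figures were drawn with matplotlib 3.10.9.

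The groups, the 38 gene lists and the rule for named genes were chosen with earlier results of these data known. The rule named a fixed set of regulators and marker genes, the largest rises and falls among genes whose mean log2 CPM reached 3 and whose groups did not overlap, for each list the called members with the largest changes and up to 2 against the majority, the largest differences from WERI, and genes that lost their call without treated replicate 2. It gave 273 genes, of which 190 are described. A further 11 list members (GNAT1, RCVRN, LDHB, PKM, SLC16A3, HK1, ID4, NOP58, GNL3, CALB1 and ONECUT2) were chosen after their values were seen. Floors of 3 counts cover counting error only.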

Additional observations from a re-analysis of the deposited data

Results flagged for a closer look

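The changes listed here differed between Y79 and WERI by at least 2-fold, with an adjusted p under 0.05 for the difference itself (edgeR), among the genes named above. Each value in brackets is the log2 difference of the THZ1 changes, Y79 minus WERI, over 3 libraries in each of the 4 groups.

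The 13 that follow fell in both lines and fell further in Y79: XBP1 (-1.14), SLC2A1 (-1.19), PRPF4 (-1.12), CCDC86 (-1.25), NOP16 (-1.36), CD3EAP (-2.18), SLC35A4 (-1.06), MED19 (-1.32), RBP3 (-2.20), SESN2 (-1.21), DNAJA1 (-1.87), ZNF133 (-1.47) and PSMD1 (-1.12). DDIT3 (1.22) fell in both lines and less in Y79.

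Others moved apart. CDK12 (-1.32) fell in Y79 and was not called in WERI. SIX3 (-1.46), ID3 (-1.03) and MYC (-1.99) fell in Y79 and were called higher in WERI, and ID1 (-1.61) was called higher in WERI and not called in Y79. FOSL1 (2.93) rose in both lines, from under 1 CPM in each. AHRR (2.46) and MEST (2.25) rose in Y79, and in WERI they stood under 1 CPM. PECAM1 (5.56) rests on few counts in Y79, with 0 in the controls. FAM111B (-6.06) and RNF26 (-4.88) rest on few counts in WERI, where FAM111B had 0 counts in the controls, so the fitted sizes of these last values depend on the model and are not bounds.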

How the results depend on the processing

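The counts of genes kept within 1.5 times of the reported values, 4439 higher and 5721 lower, with RLE factors, DESeq2, no filter, the Y79 libraries alone and single libraries left out. With 1 library left out the counts ranged from 4047 to 4388 higher and from 5450 to 6001 lower, and those of genes whose change differed between the lines from 2433 to 5190, the last without treated replicate 2. Scaled by library size alone, 2175 genes rose, and with mitochondrial scaling 283 were higher and 12188 lower. Replicate numbers did not pair the libraries: deviations of same-numbered control and treated libraries correlated at -0.00432, -0.0336 and -0.0256, and with the replicate block in the model of the Y79 libraries 3596 genes were higher and 5178 lower, against 3862 and 5321 without it. The block is therefore not used for any result.

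Values that changed sign did so mostly with the scaling. With library size alone the called genes NPM1 (-0.23), MCL1 (-0.18), BBC3 (-0.09), MDM2 (-0.13), HSPA1A (-0.03), GTF2H5 (-0.18), ERCC2 (-0.21), RPL22L1 (-0.18), MCM7 (-0.37) and NOP56 (-0.34) turned, as did, among genes not called, CDK9 (-0.38), NCL (-0.44), BCL2 (-0.39), DEK (-0.46), HSF1 (-0.53), ATF4 (-0.35), EZH2 (-0.41) and HK1 (-0.49). The list medians that turned with it were retinoblastoma and cone precursor (-0.23), pigment epithelium (-0.36), ID and HES inhibitors (-0.01), immediate early (-0.18), splicing and SR proteins (-0.36) and interferon and NF-kB (-0.07). Under mitochondrial scaling the called genes HEXIM1 (-0.07), POLR2A (-0.99), NPM1 (-1.37), COL1A1 (-0.60), JUN (-0.36), MCL1 (-1.33), BAX (-0.44), BBC3 (-1.21), MDM2 (-1.28), RB1 (-0.68), MDM4 (-0.45), HSPA1A (-1.15), HSP90AA1 (-0.53), PGK1 (-0.16) and SREBF2 (-0.99) turned. NDUFA1 (-0.03), ISG15 (-0.36), GTF2H5 (-1.31), ERCC2 (-1.35), MED24 (-0.39), POLR2E (-0.42), MXD1 (-0.10), IMPDH2 (-0.45), FBL (-0.61), SOX4 (-0.50), SOX11 (-0.85), GRM6 (-0.16), HBA1 (-0.03), HES6 (-0.42) and TIMELESS (-0.38) turned too. So did POLD1 (-0.53), PRC1 (-0.72), FANCA (-0.75), MRE11 (-0.98), HSP90AB1 (-0.46), PDIA3 (-0.48), HYOU1 (-0.63), MRPL23 (-0.22), MRPL33 (-0.48), RPL3L (-0.79), RPL22L1 (-1.31), AHRR (-0.08), MEST (-0.04), EIF4A1 (-0.88) and MCM7 (-1.51). So did NOP56 (-1.48), GNAT1 (-0.19), RCVRN (-0.47), LDHB (-0.30), PKM (-0.27), SLC16A3 (-0.74) and ID4 (-0.81). Among genes not called, CDK9 (-1.52), NCL (-1.58), ID1 (-1.45), BCL2 (-1.55), BCL2L11 (-1.46), DEK (-1.61), HSF1 (-1.66), ATF4 (-1.48), EZH2 (-1.55) and HK1 (-1.63) turned. The list medians that turned were retinoblastoma and cone precursor (-1.37), pigment epithelium (-1.51), blood and immune (-0.28), stroma and vessels (-0.60), ID and HES inhibitors (-1.13), immediate early (-1.33), glycolysis (-0.82), nuclear respiratory chain (-0.79), splicing and SR proteins (-1.50), translation factors (-0.63), interferon and NF-kB (-1.23) and mitochondrially encoded (-0.06). With RLE factors the medians of the lists Mueller glia (0.04) and pro-apoptotic (0.02) turned, and without treated replicate 2 that of Mueller glia (0.02). The cause was not tested, beyond the shift that each scaling gives to all genes.

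No library, control or treated, turned a called gene when it was left out, among the genes named, apart from CALB1, which ranged from 0.00 without treated replicate 3, its only library with counts, to 4.66. DESeq2 and no filter turned none of them either. In the edgeR fit of the Y79 libraries alone 9 of the named genes lost their call (adjusted p from 0.0598 to 0.132). They were ARR3, BBC3, CDK1, GLUL, ID4, MCM7, NOP56, NPM1 and RPL22L1. The cut of the gene structure classes to genes of at least 1 CPM was chosen after seeing the data, as was the fit without a filter for the difference between the lines. Depth limits genes under about 1 CPM, where sampling noise is a large part of a value.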
